A study of Homo sapiens with 10 samples.

Results

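ERVL elements are endogenous retroviruses, remnants of retroviral infections of the germ line that now make up part of the genome. They were followed here as the 115 transposable element (TE) subfamilies whose identifiers place them in the ERVL family of the LTR class, out of 973 TE rows in a table of 14785 rows. The related ERVL-MaLR family, with 76 rows, has a class label of its own and was kept apart, and the table further held 274 ERV1 and 38 ERVK rows. A row sums the signal of all copies of a subfamily, so it has no single place in the genome.

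The samples were cells of the human embryonic stem cell line H1, which is widely used, described as wild type and grown in mTeSR1 medium on Matrigel. Each of the 5 groups carried a short hairpin RNA (shRNA) brought in with packaged virus and was selected with puromycin. The hairpins targeted SMARCA4 (shSMARCA4), MAFK (shMAFK), E2F6 (shE2F6), KDM1A (shKDM1A) or, as the control that shares virus and selection, luciferase (shLUC). Each group had 2 libraries of total RNA, said to be biological duplicates; how many different hairpins were used per target is not given in the sources used here, and no group without virus was analysed here. The series title frames the question as which factors modulate chromatin structure that TEs drive, and the comparison of each knockdown with shLUC asks how ERVL RNA responds to loss of each factor.

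An intact ERVL provirus has an internal region with the retroviral genes, flanked by long terminal repeats (LTRs) that hold its promoter; most copies in the genome are solitary LTRs. In the names used here, "-int" marks internal regions, and the LTR of the human HERVL element is called MLT2A1 or MLT2A2. HERVL and its LTRs are transcribed in the human embryo at the cleavage stage, when DUX4 activates them, and the mouse counterpart MERVL marks rare totipotent-like cells in stem cell cultures. In mouse embryonic stem cells MERVL is kept low by the histone demethylase KDM1A, by a polycomb complex that contains E2F6, and by histone methylation through TRIM28 and SETDB1; SMARCA4 is the ATPase of the BAF chromatin remodelling complex, and MAFK is a small MAF transcription factor.

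In these human cells, ERVL signal was higher in the KDM1A knockdown than in the shLUC control in most subfamilies, by a small amount, and no single subfamily passed the adjusted test. The median log2 change over the 115 subfamilies was 0.26 in shKDM1A, against -0.02 over all rows, 0.03 over the other TE rows and 0.14 over ERVL-MaLR. For the other knockdowns the median was 0.11 (shSMARCA4, and -0.04 without its replicate 2), 0.07 (shMAFK) and 0.08 (shE2F6). In the same order the medians were 0.06, 0.03 and 0.05 over the other TE rows. Over ERVL-MaLR they were 0.11, 0.06 and 0.07, close to those of ERVL. In shKDM1A the whole LTR groups MLT2, LTR16 and LTR33 had higher means than in shLUC, which takes in MLT2A1, an LTR of HERVL. Among internal regions the differences were unequal, with HERVL18-int and LTR53-int higher and HERVL66-int and LTR52-int lower in mean.

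All values are the normalized tag counts deposited by the authors, set so that library totals are nearly equal, and the read depth behind them is unknown. In the control libraries the 115 subfamilies summed to 69406 and 68863, which was 0.304% and 0.301% of all signal. The shKDM1A libraries summed to 82240 and 82826 (0.360% and 0.362%), and the shSMARCA4 libraries to 67535 and 84921 (0.296% and 0.372%). The shMAFK sums were 73231 and 71923 (0.320% and 0.315%), and the shE2F6 sums 69985 and 76390 (0.306% and 0.334%). The shKDM1A libraries lay close together and above both controls, while the shSMARCA4 libraries lay on either side of the controls. Within the shKDM1A sums, parts differed in opposite directions. Internal regions summed to 14134 in replicate 1 and 16676 in replicate 2, and the MLT2 LTRs to 13456 and 12257. Groups of 2 cannot reach p = 0.05 in an exact test, so these sums are described without one. In bulk RNA, a change in the share of cells that transcribe an element and a change per cell cannot be told apart.

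Taking each subfamily as its difference from its shLUC mean, the 2 libraries of shKDM1A had medians of 0.24 and 0.21, those of shSMARCA4 -0.04 and 0.25, those of shMAFK 0.06 and 0.07, and those of shE2F6 0.04 and 0.10, as the plot of all subfamilies by library shows. In shKDM1A replicate 1 the other TE rows had a median of -0.11 while ERVL stood at 0.24, and in replicate 2 the other TE rows had a median of 0.16. ERVL made up 2.81% and 2.26% of all TE signal in these libraries, against 2.09% and 2.08% in the controls. These shares also depend on total TE signal, which was 12.8% and 16.0% of the shKDM1A libraries and 14.5% of each control. In shSMARCA4 replicate 2, which had the median of 0.25, the other TE rows were also higher, with a median of 0.15.

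**Figure D1:**
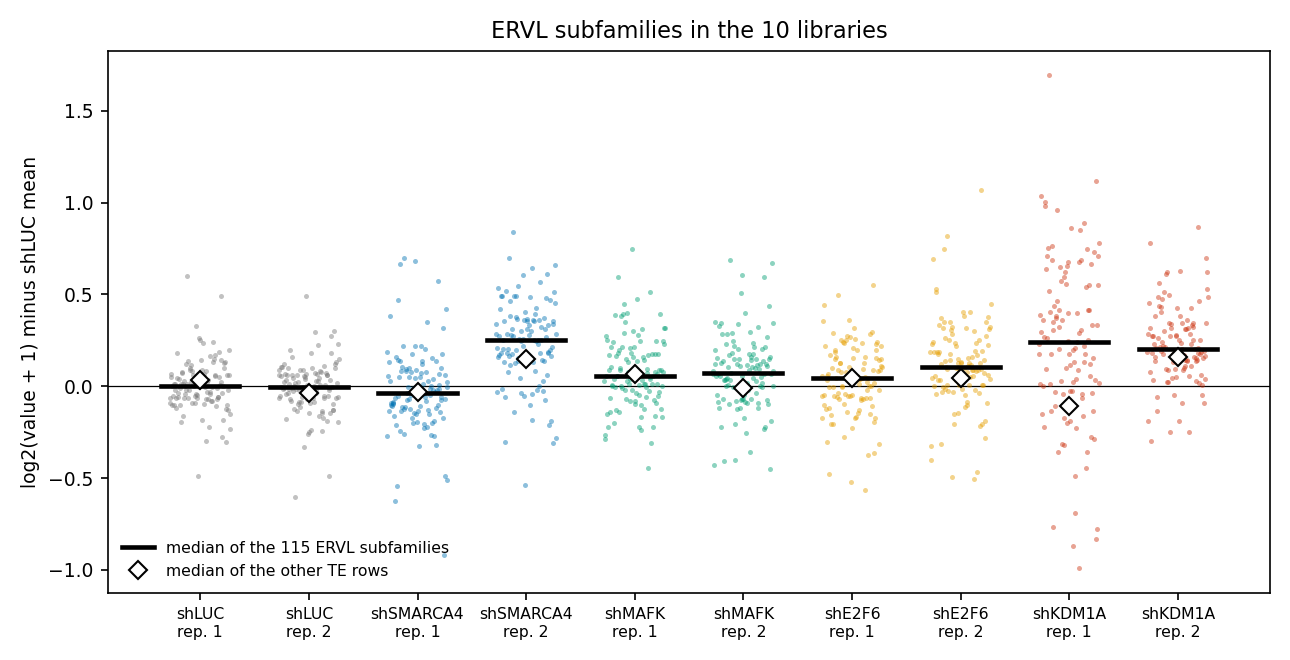
Difference of each of the 115 ERVL subfamilies from its shLUC mean, as log2(value + 1), in each of the 10 libraries (x axis); points are subfamilies, black bars their median and white diamonds the median of the other TE rows. The bars stand at 0.24 and 0.21 in the shKDM1A libraries and at -0.04 and 0.25 in the shSMARCA4 libraries, and the diamond of shKDM1A replicate 1 is below 0 at -0.11.

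Libraries differed in ways that touch these values. The members varied more between the shKDM1A libraries (SD of log2 values, pooled over members, 0.327) than between the controls (0.202). So did all rows (0.53 against 0.275). These pooled SDs are root mean squares, in which rows with large gaps weigh most. All 10 pluripotency genes on the marker list were in the table, none at 0 in any library, and none of the 6 cleavage-stage markers was analysed here. The 5 mesendoderm markers in the table (of 9 on the list) summed to 9497 and 1862 in shSMARCA4 and to between 69 and 336 elsewhere, with 9 single values at 0; their part in the ERVL values of shSMARCA4 was not tested. Marker genes also differed in the shKDM1A libraries. The 10 pluripotency genes summed to 256499 in replicate 1 and 156214 in replicate 2, against 131473 to 159914 in the other 8 libraries, through POU5F1, which was listed at 148866 in replicate 1 and at 35710 in replicate 2 and both controls. The value 148866 is also the highest row mean among ERV1, Alu and protein-coding rows alike. It may thus be a ceiling of the scaling, and the size of the POU5F1 gap is uncertain. The 2 ectoderm markers in the table (of 4 on the list), ZIC1 and OTX2, summed to 227 and 328 in shKDM1A against 769 and 883 in shLUC and 430 to 1459 in the other knockdowns, and OTX2 stood at 30.4% of the control (adjusted p = 0.207 by limma). Their part in the ERVL values of shKDM1A was not tested.

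The targeted genes were lower in mean in their own knockdown, and only SMARCA4 passed the adjusted test. SMARCA4 (ENSG00000127616, chr19:10960825-11079426 on GRCh38) was listed at 8086 and 8374 in shLUC and at 1100 and 985 in shSMARCA4, 12.7% of the control. KDM1A (ENSG00000004487, chr1:23019443-23083689) was listed at 6344 and 5925 in shLUC and at 3290 and 1879 in shKDM1A, a mean of 42.1% of the control (log2 change -1.30, adjusted p = 0.132 by limma). E2F6 stood at 61.3% of its control level (491 and 553 against 336 and 304) and MAFK at 59.6% (212 and 288 against 82 and 216). For MAFK the groups overlap, at 216 in 1 knockdown library against 212 in 1 control, and the shKDM1A libraries differ in how much KDM1A RNA is left.

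In the limma fit, with p-values adjusted by Benjamini-Hochberg across the 14785 rows, 0 of the 115 ERVL subfamilies passed an adjusted p of 0.05 in any of the 4 comparisons. Of all rows, 4.18% passed for shSMARCA4, 0.0135% for shMAFK, 0% for shE2F6 and 0.0271% for shKDM1A, so in the last 3 comparisons almost no row of any kind was called. The smallest adjusted p among the members was 0.234, 0.569, 0.963 and 0.256 in the same order. An F-test over the 4 knockdowns called 6.64% of all rows and 0 members (smallest adjusted p = 0.175). Without shKDM1A replicate 2, 20 members passed for shKDM1A (18 higher and 2 lower) and 7 in the F-test, with replicate 1 as a lone library that is assumed to vary like the other groups. In those fits 21.9% and 35.9% of all rows passed, so neither count exceeds the share of all rows. These tests measure the spread between 2 libraries per group, pooled over the groups with 5 residual degrees of freedom.

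At an unadjusted p under 0.05, 15 ERVL subfamilies were higher and 0 lower in shKDM1A, where 5.85% of all rows were higher and 5.61% lower. Those 15 comprise the internal regions HERVL18-int, LTR53-int and MER21-int, the LTRs MLT2A1, MLT2B1 and MLT2B2, the LTR16 members LTR16A2, LTR16B, LTR16E1 and LTR16E2, and LTR32, LTR33C, LTR40c, LTR41C and LTR69. At the same threshold in shKDM1A, 9 of 76 ERVL-MaLR, 28 of 274 ERV1 and 20 of 130 L1 rows were higher. The number was 0 of 38 for ERVK, 0 of 48 for Alu and 67 of the 858 TE rows outside ERVL. Such higher rows were thus not particular to ERVL. In the other comparisons 1 member was higher and 0 lower each: HERVL18-int in shSMARCA4 (7.78% of all rows higher, 8.53% lower), LTR53-int in shMAFK (4.27% and 4.49%) and LTR69 in shE2F6 (2.55% and 2.54%). The count of 15 was 5 without shLUC replicate 2, 10 without shLUC replicate 1, 11 without shKDM1A replicate 1 and 31 without shKDM1A replicate 2 (17.1% of all rows higher). For shSMARCA4 the count of higher members was 10 without shSMARCA4 replicate 1 and 0 without replicate 2, and for shMAFK and shE2F6 it was 0 to 2 with 1 library left out. All 3 of the single members were also among the 15, and all comparisons share the same 2 shLUC libraries.

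Both shKDM1A libraries were above both shLUC libraries for 58 of the 115 members and below for 2, whereas this held for 17.9% and 20.9% of all rows. The count above was 35 of 76 for ERVL-MaLR, 98 of 274 for ERV1 and 44 of 130 for L1. It was 2 of 38 for ERVK, 0 of 48 Alu rows and 230 of all 858 TE rows outside ERVL. For shSMARCA4 25 members were above and 8 below without overlap (25.6% and 25.4% of all rows). For shMAFK 38 were above and 7 below (23.8% and 25.3%), and for shE2F6 29 and 7 (20.3% and 20.4%). The shSMARCA4 count of higher members is thus near the share of all rows, and the counts of lower members are under it in all 4 comparisons. For shSMARCA4 this rests on replicate 2, without which 30 members were above and 44 below, where 38.2% and 37.8% of all rows were.

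By mean log2 change, 95 of the 115 members were higher in shKDM1A and 20 lower. When each library was centred on the median of its TE rows, the split became 67 and 48, with a median of 0.08. That scaling moves the median of all rows to -0.20. It shifts every row of a library by the same amount, so the gap of 0.28 between the medians of the members and of all rows could not change. The split was 92 higher to 23 lower in shSMARCA4 (60 to 55 with TE centring, and 71 to 44 when centred on the median deviation of TE rows), 75 to 40 in shE2F6 (60 to 55 with TE centring, median 0.005) and 77 to 38 in shMAFK. In shSMARCA4, shMAFK, shE2F6 and shKDM1A, 80.0%, 67.0%, 65.2% and 82.6% of members had a higher mean. Of all rows, 50.9%, 49.0%, 49.2% and 47.9% did in the same order. Among the TE rows outside ERVL the shares were 66.3%, 56.1%, 63.3% and 56.1%, and among ERVL-MaLR rows 76.3%, 68.4%, 69.7% and 76.3%. The shE2F6 split of the members was thus near that of the other TE rows. Without shSMARCA4 replicate 2, only 48 of the 115 members had a higher mean in shSMARCA4. Changes ranged from -0.48 to 0.91 in shKDM1A, from -0.61 to 0.77 for shSMARCA4, from -0.35 to 0.63 for shMAFK and from -0.53 to 0.81 for shE2F6. In no comparison did a member reach a 2-fold difference in mean.

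The HERVL element itself was represented by HERVL-int and its LTRs. MLT2A1 was listed at 735 and 676 in shLUC and at 1034 and 1087 in shKDM1A, with 716 and 966 in shSMARCA4, 877 and 746 with shMAFK, and 822 and 883 with shE2F6. Both shKDM1A values are above those of the other 8 libraries, and all other knockdown libraries but the first of shSMARCA4 are above both controls. The log2 change in shKDM1A was 0.59 (SE 0.18, adjusted p = 0.341 by limma), from 705.5 ± 41.7 to 1060.5 ± 37.5 (SD, n = 2).

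HERVL-int, which carries the retroviral genes, was listed at 1842 and 1605 in shLUC, 1675 and 2421 in shSMARCA4, 2346 and 2039 with shMAFK, 2046 and 2190 with shE2F6, and 1983 and 2650 in shKDM1A. It was above both controls in all libraries of shMAFK, shE2F6 and shKDM1A, with no group apart from the other knockdowns. Its log2 changes were 0.23, 0.35, 0.30 and 0.41 for shSMARCA4, shMAFK, shE2F6 and shKDM1A (adjusted p = 0.474 by limma in shKDM1A).

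MLT2A2, the other LTR of HERVL, was listed at 2170 and 2138 in shLUC, 2012 and 3025 in shSMARCA4, 1958 and 2030 with shMAFK, 2240 and 3110 with shE2F6, and 2596 and 2606 in shKDM1A. Its highest values were in single libraries of shE2F6 and shSMARCA4, so it did not share the order of MLT2A1. The log2 change in shKDM1A was 0.27 (SE 0.22, adjusted p = 0.600 by limma).

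**Figure D2:**
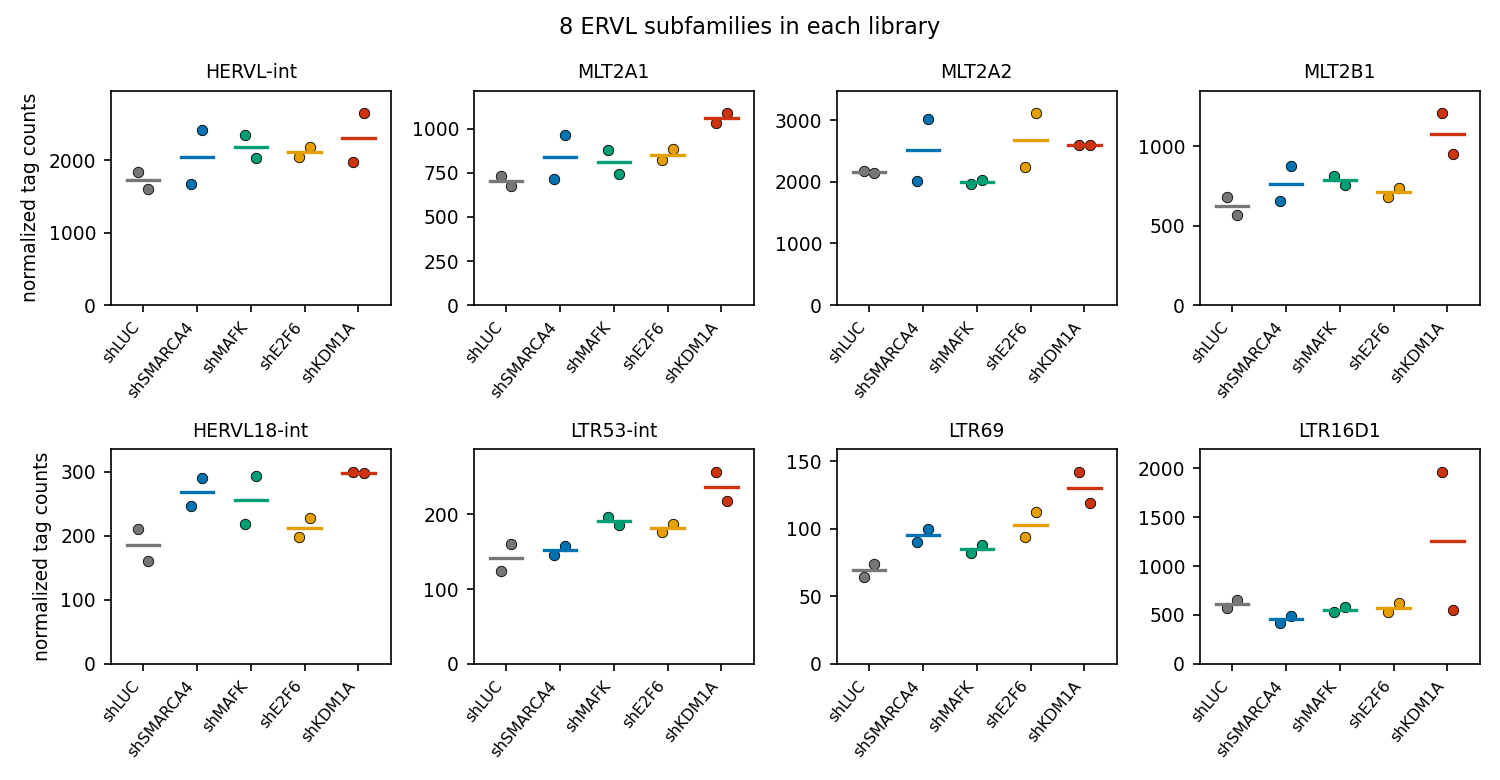
Normalized tag counts (y axis, from 0) of 8 ERVL subfamilies in the 5 groups; points are the 2 libraries of a group and lines their mean. MLT2A1 at 1034 and 1087 and MLT2B1 at 1206 and 948 in shKDM1A lie above all other libraries, whereas LTR16D1 is high in 1 shKDM1A library only, at 1964 against 553 in the other.

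The remaining MLT2 members are LTRs of older mammalian ERVL elements. All 12 MLT2 subfamilies had a higher mean in shKDM1A than in shLUC (median log2 change 0.36), 9 of them without overlap of the libraries. MLT2B1 was listed at 682 and 564 in shLUC and at 1206 and 948 in shKDM1A, and at 657 to 873 in the other 6 libraries. Its log2 change of 0.78 (SE 0.20, adjusted p = 0.256 by limma) had the smallest adjusted p of all members in this comparison, and the groups do not overlap.

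MLT2B2 followed with 462 and 368 in shLUC against 660 and 514 in shKDM1A (log2 change 0.50), and MLT2B3 with 1392 and 1388 against 1708 and 1734 (0.31). MLT2E, at 150 and 142 against 247 and 140, and MLT2B5, at 104 and 123 against 224 and 116, were high in replicate 1 only. The MLT2 medians in shSMARCA4, shMAFK and shE2F6 were 0.10, 0.05 and 0.01. With TE centring 10 of the 12 remained above the control in shKDM1A in mean, with a median of 0.18.

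LTR16 members are LTRs that go with the internal region HERV16-int. All 13 were higher in mean in shKDM1A (median log2 change 0.34; 11 of 13 and 0.15 with TE centring), and 10 had no overlap. LTR16B was listed at 306 and 311 in shLUC and at 443 and 432 in shKDM1A, but also at 341 and 443 in shSMARCA4, 404 and 340 with shMAFK, and 330 and 400 with shE2F6. Every knockdown library of LTR16B thus lay above both controls, by log2 changes of 0.33, 0.26, 0.24 and 0.50 for shSMARCA4, shMAFK, shE2F6 and shKDM1A.

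LTR16D1 varied most of all members over the 10 libraries, with an SD of log2 values of 0.61 against a median of 0.20. It was listed at 1964 in shKDM1A replicate 1 and at 553 in replicate 2, and at 566 and 650 in shLUC. The mean log2 change of 0.78 therefore rests on replicate 1: without it the change was -0.13, and without replicate 2 it was 1.69.

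LTR33 was the member with the highest mean signal, and its values were 3652 and 4132 in shLUC and 4392 and 4427 in shKDM1A (log2 change 0.18, and -0.00 with TE centring), with 4427 and 4907 in shSMARCA4. All 5 LTR33 members were above the controls in both shKDM1A libraries (median 0.37; 4 of 5 higher in mean and 0.19 with TE centring). LTR33C had the widest gap, with 264 and 208 in shLUC against 435 and 296 in shKDM1A (0.61, SE 0.22, adjusted p = 0.388 by limma). In the other 6 libraries it lay between 220 and 268, within or overlapping the control range.

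**Figure D3:**
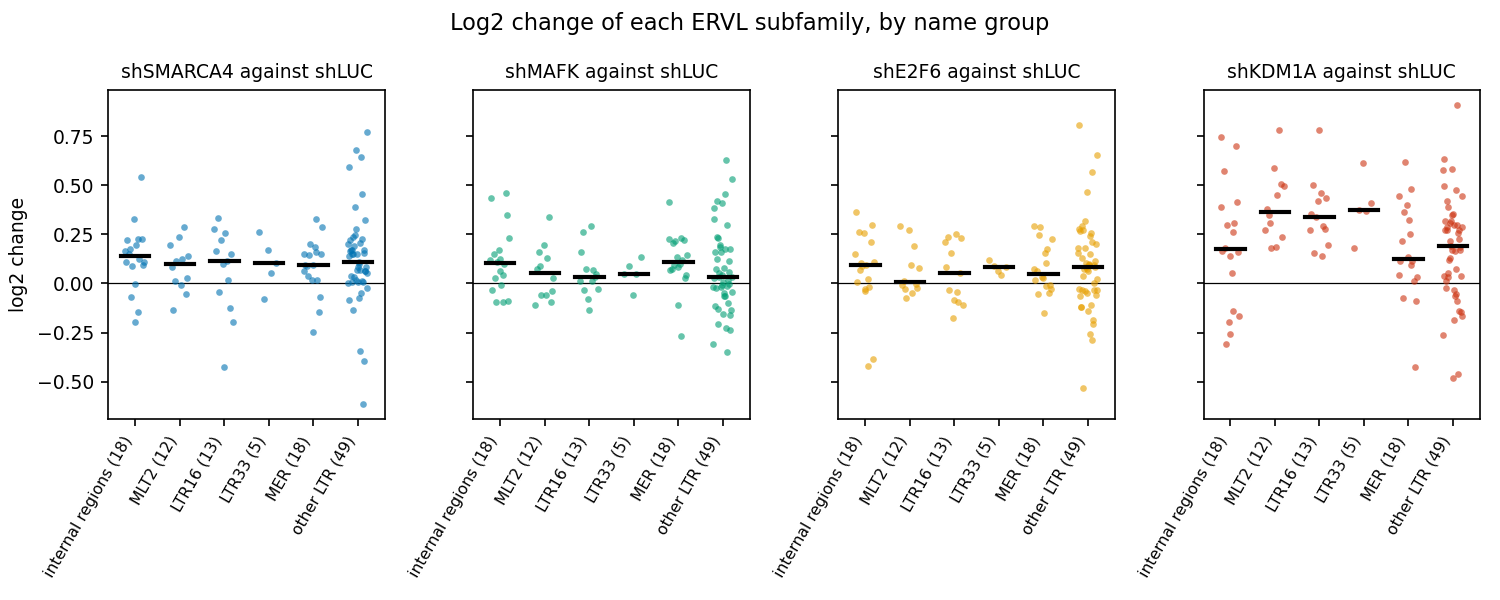
Log2 change against shLUC (y axis) of each ERVL subfamily (points) by name group (x axis, number of members in brackets) in the 4 comparisons; black bars are medians. In shKDM1A the medians of MLT2, LTR16 and LTR33 are 0.36, 0.34 and 0.37, above those of internal regions (0.17) and MER (0.13).

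The 18 MER members (an older naming series for repeats) had a median of 0.13 in shKDM1A, with 15 higher in mean and 6 without overlap; with TE centring 8 of 18 were higher and the median was -0.06. The abundant LTRs MER21C and MER21B had low values in shKDM1A replicate 1 and high ones in replicate 2: 2891 and 4196 for MER21C against 3314 and 3450 in shLUC, and 1880 and 3150 for MER21B against 2224 and 2340. Their shKDM1A libraries lay on both sides of the controls. MER54A went the same way, at 756 and 1656 against 1473 and 1534.

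The 49 other LTR subfamilies had a median of 0.19 in shKDM1A, with 37 higher in mean and 19 without overlap (26 higher and a median of 0.01 with TE centring). LTR69, a low-level row, was listed at 64 and 74 in shLUC, 90 and 100 in shSMARCA4, 82 and 88 with shMAFK, 94 and 112 with shE2F6, and 142 and 119 in shKDM1A. All 8 knockdown values lay above the controls and the shKDM1A values above the rest, with log2 changes of 0.46, 0.30, 0.57 and 0.91 and adjusted p of 0.277 by limma in shKDM1A and 0.963 in shE2F6.

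LTR41B, at 1874 and 1718 in shLUC against 3901 and 1847 in shKDM1A, was high in replicate 1 only. In the opposite direction, LTR108a_Mam was listed at 127 and 116 in shLUC and at 66 and 114 in shKDM1A (log2 change -0.48), and LTR47B4 at 90 and 88 against 78 and 78; these were the 2 members below the controls without overlap. In shSMARCA4, LTR86B1 was listed at 235 and 360 against 416 and 478 (log2 change -0.61, adjusted p = 0.318 by limma), and LTR47B at 105 and 116 against 98 and 42 (0.77), a difference that rests on the second control.

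Further differences outside shKDM1A were in LTR rows with low or moderate signal. LTR47B3 was listed at 66 and 33 in shLUC, 70 and 72 in shSMARCA4 (log2 change 0.59) and 69 and 99 in shE2F6 (0.81), and its second control, like that of LTR47B, was low. LTR91 was at 35 and 70 in shLUC, 80 and 76 in shSMARCA4 (0.64) and 84 and 71 in shMAFK (0.63), and LTR18C at 47 and 59 against 84 and 86 in shSMARCA4 (0.68). All control values of these rows are under 100 tag counts.

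Lower without overlap in shSMARCA4 were LTR16D1 (416 and 491 against 566 and 650, -0.42), LTR108d_Mam (51 and 60 against 62 and 86, -0.39) and LTR16B1 (420 and 498 against 543 and 505, -0.19). LTR16D1 and LTR16B1 thus had a lower mean in shSMARCA4 and a higher one in shKDM1A. LTR18A was lower in mean in shE2F6, at 91 and 95 against 160 and 114 (-0.53), and LTR84b in shMAFK, at 388 and 325 against 423 and 410 (-0.23). By limma 0 of these passed the adjusted test.

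Internal regions, which hold the sequence for the retroviral proteins, were less uniform. In shKDM1A 13 of 18 had a higher mean, with a median of 0.17 and 9 without overlap, and with TE centring 8 of 18 were higher (median -0.01). HERVL18-int was listed at 210 and 160 in shLUC and at 300 and 298 in shKDM1A (log2 change 0.70, SE 0.21, adjusted p = 0.334 by limma), with 246 and 290 in shSMARCA4 (0.54, adjusted p = 0.234), 218 and 293 in shMAFK (0.46) and 198 and 228 in shE2F6 (0.21). It was thus above both controls in 3 of the 4 knockdowns and overlapped with them in shE2F6.

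LTR53-int, named like an LTR but an internal region, was listed at 124 and 160 in shLUC and 257 and 218 in shKDM1A (log2 change 0.74, SE 0.19, adjusted p = 0.265 by limma). It was at 196 and 186 in shMAFK and 176 and 187 in shE2F6, both above the controls (0.44 and 0.36), and at 146 and 158 in shSMARCA4, inside the control range (0.11). MER21-int was listed at 244 and 208 in shLUC and at 354 and 318 in shKDM1A (0.57), above the 215 to 291 of the other 6 libraries.

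The most abundant internal regions differed less. ERVL-E-int was listed at 2818 and 2712 in shLUC, 3414 and 3850 in shKDM1A (log2 change 0.39) and 2520 and 3820 in shSMARCA4. ERV3-16A3_I-int was at 2208 and 2223 against 2628 and 2690 in shKDM1A (0.26), and ERVL-B4-int at 2282 and 1898 against 1991 and 2794 (0.18, and -0.00 with TE centring), where the groups overlap.

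ERVL-int was listed at 338 and 378 in shLUC and at 443 and 435 in shKDM1A (0.30), above all other libraries, and HERV16-int at 509 and 462 against 548 and 658 (0.31), also without overlap. MER68-int, at 499 and 500 in shLUC, was higher in both libraries of shSMARCA4 (550 and 616, 0.22) and of shKDM1A (548 and 575, 0.17, and -0.02 with TE centring) and near the control elsewhere. HERVL40-int (630 to 632 in shLUC, 613 and 788 in shKDM1A) and LTR57-int (310 and 261 against 264 and 331) overlapped with the controls. MER70-int was above both controls in shSMARCA4, shMAFK and shE2F6, at 388 to 449 against 362 and 373, and at 286 and 374 in shKDM1A.

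Among those lower in mean, HERVL74-int was at 229 and 204 in shLUC and 154 and 230 in shKDM1A (-0.20), HERVL66-int at 104 and 125 against 66 and 128 (-0.31), and LTR52-int at 62 and 94 against 47 and 86 (-0.26). In each the replicate 1 library was low and the replicate 2 library was within or above the control range. ERVL47-int was below the controls without overlap in shE2F6, at 130 and 122 against 168 and 170 (-0.42), and MER76-int at 63 and 54 against 81 and 72 (-0.38).

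Internal regions were then set beside the LTRs of the same element, matched by shared name or number, in 14 pairs that share copies and possibly reads. In shKDM1A the internal region and the median of its LTRs were both higher in mean in 9 pairs and both lower in 0, and the counts were 11 and 1 in shSMARCA4, 6 and 2 with shMAFK, and 7 and 0 with shE2F6. Taken alone, 10 internal regions and 13 LTR medians of the 14 were higher in shKDM1A. The numbers were 11 and 13 in shSMARCA4, 10 and 8 with shMAFK, and 10 and 11 with shE2F6. Where most of either kind are higher, many pairs match without any link, and a link was not tested. HERVL-int, at 0.41, lay between its LTRs at 0.27 and 0.59. HERVL18-int at 0.70 lay above its LTRs, which were at 0.01 to 0.58, and LTR53-int at 0.74 lay above the -0.17 to 0.27 of its LTRs. The reverse held for MER70-int, at -0.17 with LTRs at 0.01 to 0.48, and for HERVL74-int, at -0.20 with LTRs at 0.11 to 0.36.

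**Figure D4:**
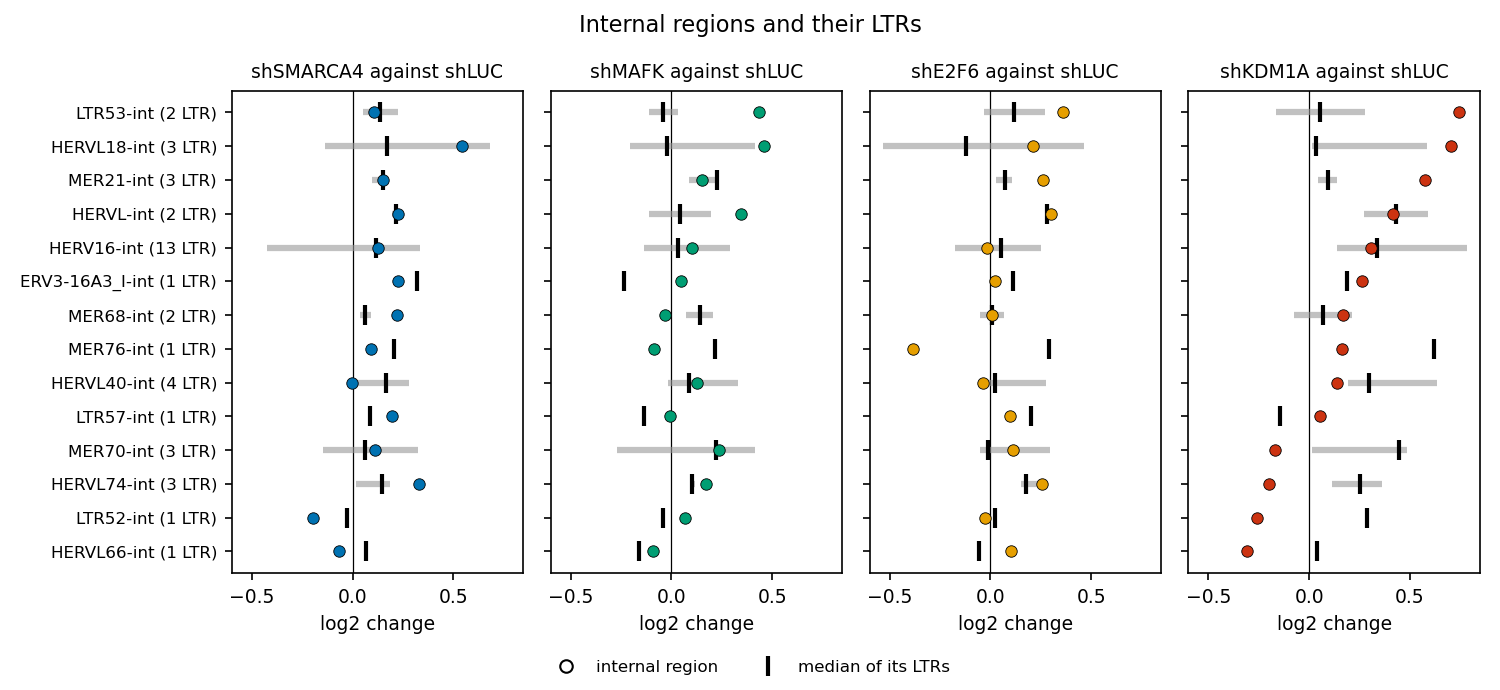
Log2 change against shLUC (x axis) of 14 internal regions (points) and of their LTRs (black tick, median; grey bar, lowest to highest LTR) in the 4 comparisons. In shKDM1A LTR53-int (0.74) and HERVL18-int (0.70) lie to the right of their LTRs, and MER70-int (-0.17) and HERVL74-int (-0.20) to the left.

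The 2 shKDM1A libraries agreed in sign for most members but not in size. Of the 115, 77 were above the shLUC mean in both libraries, 4 were below in both, 7 were above in replicate 1 only and 27 in replicate 2 only. In replicate 1, 4 members were at least 2-fold above the shLUC mean, and in replicate 2 there were 0. Splitting the members into 3 groups by level gave medians of 0.26, 0.24 and 0.27 in the low, middle and high levels, so the medians were alike across levels. The low group was less uniform. A higher mean was seen in 28 of 38, 31 of 38 and 36 of 39 members, and 13, 21 and 24 were higher without overlap.

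**Figure D5:**
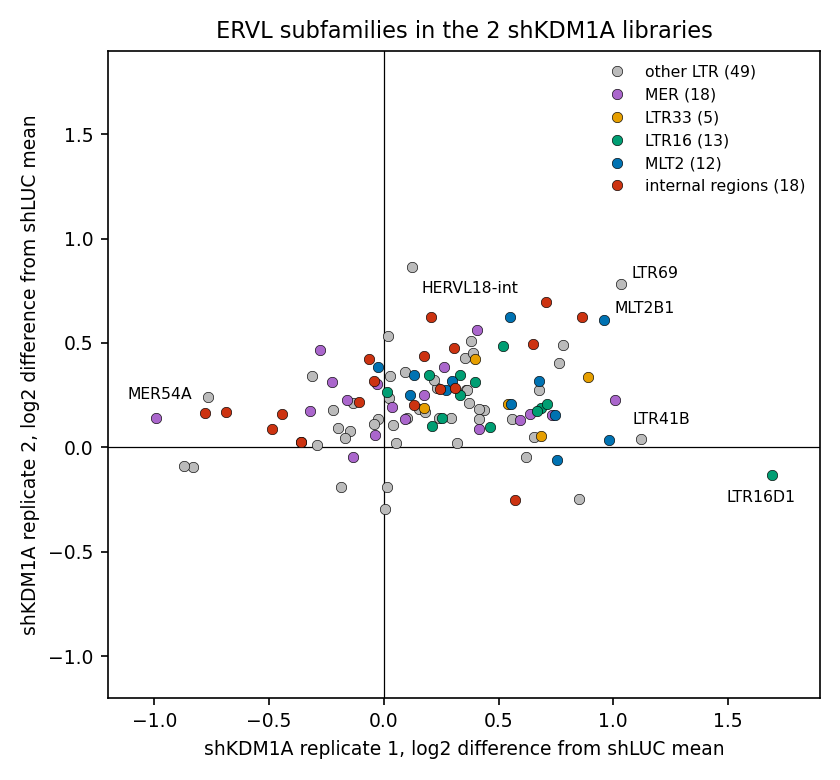
Log2 difference of each ERVL subfamily from its shLUC mean in shKDM1A replicate 1 (x axis) and replicate 2 (y axis), coloured by name group. The 77 points at upper right are above the shLUC mean in both libraries; LTR16D1 and LTR41B are far to the right and MER54A far to the left through replicate 1 alone.

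Whether shKDM1A differed from the other knockdowns was asked in a contrast chosen after the values were seen. Against the mean of the other 3 knockdowns, 89 of 115 members were higher in shKDM1A, with a median of 0.17 against -0.01 for the other TE rows and -0.02 for all rows. MLT2 (12 of 12, median 0.33) and LTR16 (13 of 13, median 0.23) were higher throughout. Of the ERVL-MaLR rows, 57 of 76 were higher, with a median of 0.08. By limma 0 members passed the adjusted test (smallest adjusted p = 0.175; 0.649% of all rows passed), and 12 were higher and 1 lower at an unadjusted p under 0.05 (9.11% and 9.83% of all rows). Both shKDM1A libraries exceeded all 8 others for 18 members, and for 3.52% of all rows and 51 of the 858 other TE rows. The same held for 8 of 76 ERVL-MaLR, 24 of 274 ERV1, 11 of 130 L1, 0 of 38 ERVK and 0 of 48 Alu rows. The 18 members were MLT2A1, MLT2B1, MLT2B2, MLT2B3, LTR16, LTR16B1, LTR16E2, LTR33B, LTR33C, LTR40c, LTR41C, LTR53-int, LTR69, MER21-int, MER68B, MER88, ERVL-int and HERVL18-int. An F-test over the 4 knockdowns had an unadjusted p under 0.05 for 1 member, LTR75B (23.6% of all rows), whose values were 140 and 97 in shLUC, 105 and 80 in shSMARCA4, 144 and 178 with shMAFK, 81 and 117 with shE2F6, and 187 and 141 in shKDM1A.

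A few subfamilies stood above the controls in every knockdown, although all 4 comparisons use the same shLUC libraries. Without overlap in all 4 were 8 members, LTR16A2, LTR16B, LTR16E1, LTR18C, LTR32, LTR41C, LTR69 and LTR86C, where 33 of the 858 other TE rows and 2.06% of all rows did the same. LTR32, for example, was listed at 324 and 353 in shLUC and between 359 and 456 in the 8 knockdown libraries. LTR82A, at 740 and 675 in shLUC, was below them in shMAFK (588 and 524, log2 change -0.35) and shE2F6 (626 and 534, -0.29), and within them or overlapping in shSMARCA4 and shKDM1A.

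Factors known to act on ERVL elements or on the cleavage-stage programme were taken from a list of 58 names, of which 46 were in the table; DUX4, ZSCAN4 and 10 others were not analysed here. By limma 0 of the 46 were higher and 1 lower past the adjusted threshold, namely SMARCA4 in its own knockdown. DPPA2 (ENSG00000163530, chr3:109293788-109316517), a pluripotency factor that in mouse cells acts upstream of the Dux gene, was listed at 316 and 252 in shLUC and at 651 and 532 in shKDM1A, with 234 to 354 in the other 6 libraries. Both shKDM1A values are the highest of the 10, and the log2 change was 1.06 (SE 0.18, adjusted p = 0.126 by limma). Other listed genes were lower in mean in shKDM1A: DPPA4 by -0.23, DPPA3 by -0.72 and ZFP42 by -0.25. Of the 46, 2 were higher and 2 lower in shKDM1A at an unadjusted p under 0.05 by limma, where 5.85% and 5.61% of all rows were. The median log2 change of the 46 in shKDM1A was 0.04. SUV39H1, a histone methyltransferase of heterochromatin, was listed at 497 and 389 in shLUC and at 247 and 254 in shMAFK (-0.81, adjusted p = 0.142 by limma) and 314 and 316 in shKDM1A (-0.48, adjusted p = 0.366).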

How the data were processed

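Each value in the table was deposited as a score, a normalized value rounded to a whole number. The authors' file name abbreviates the unit, read here as normalized tag counts; these are not raw counts, since 80.3% of ranks hold the same value in all 10 libraries. Such scaling hides part of any shift of TE RNA as a whole, and depth is unknown. The submitters' processing notes name STAR, STARsolo and hg38, with no role; the counter, the TE annotation, the handling of reads that map to several copies and the normalization are not given in the sources used here. Subfamilies can share reads, and a TE inside a gene can hold reads of that gene. Levels are not per length or copy number, so they were compared between libraries only.

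Groups and replicate numbers came from the sample titles. Columns not mapped to a sample numbered 0. Values were analysed as log2(value + 1), which understates changes of low rows; the filter (mean of at least 10) removed 0 rows. All 10 libraries entered 1 fit with limma 3.58.1 in R 4.3.3 (eBayes with trend, two-sided), adjusted by Benjamini-Hochberg over all rows, at a threshold of 0.05, and the code was tested on simulated data. Replicate numbers were not treated as pairing libraries, so the main fit had no block. Deviations of same-numbered libraries correlated over 0.1 in 2 of 10 pairs of groups, most in shSMARCA4 with shE2F6 (0.337). A replicate block was fitted as an alternative. Tables and plots used Python 3.11.15, pandas 2.3.3 and matplotlib 3.10.9. Gene positions are from GENCODE release 29. Pseudocount, filter, scaling, fit and left-out libraries were varied.

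Named members are those past the adjusted threshold, the 4 largest differences in each direction per knockdown without overlap between libraries (mean of at least 50), the 3 smallest F-test p, all internal regions, the LTRs of HERVL, the 5 highest and 3 lowest levels and the 3 largest SDs; the others were named after their values were seen. Of listed regulators, those past the threshold and at most 4 more were to be named. The members and lists were chosen with earlier results of these data known. The contrast of shKDM1A with the other knockdowns and the centring on the median deviation of TE rows were added after the data were seen.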

Additional observations from a re-analysis of the deposited data

How the results depend on the processing

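With each library centred on the median of its TE rows, the median change of the 115 subfamilies went from 0.111 to 0.006 in shSMARCA4, from 0.076 to 0.005 in shE2F6 and from 0.263 to 0.078 in shKDM1A; the cause was not tested. Leaving out 1 library moved the shSMARCA4 median between -0.038 (without shSMARCA4 replicate 2) and 0.254 (without replicate 1), and that of shKDM1A between 0.205 and 0.263. Adjusted calls in shKDM1A ranged from 0 to 20: without shKDM1A replicate 2, 20 members passed, 18 higher and 2 lower (LTR16D1 at 1.69, smallest adjusted p = 0.00116), where 21.9% of all rows passed, on a lone library assumed to vary like the other groups; the F-test range was 0 to 7, where 35.9% of all rows passed with the same library left out. Members higher in shKDM1A at an unadjusted p under 0.05 numbered 15, against 5 with TE centring, with group weights or without shLUC replicate 2, 8 with centring on the TE deviation (an alternative chosen after seeing the data) or with only the 2 groups fitted, 10 without shLUC replicate 1, 11 without shKDM1A replicate 1 and 31 without shKDM1A replicate 2. A replicate block left 0 adjusted calls in all 4 comparisons. Since each group holds both replicate numbers, the block could move p-values only, not log2 changes or their medians. Over 10 pairs of groups, same-numbered libraries had correlated deviations of -0.05 to 0.337, of which 2 were over 0.1. The unadjusted count of higher members ran from 0 to 10 in shSMARCA4, 0 to 6 in shMAFK and 0 to 2 in shE2F6. The smallest adjusted p over the alternatives was 0.106 in shSMARCA4, 0.144 in shMAFK and 0.375 in shE2F6.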
